A study of Mus musculus with 6 samples.

Results

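Transcripts of 32 mouse genes of mitochondrial fatty acid oxidation and the carnitine shuttle were examined in activated primary CD8+ T cells given TVA (trans-vaccenic acid, which occurs in ruminant fat) or its solvent DMSO. The genes were chosen by symbol, as the enzymes and carriers that bring long-chain acyl groups into mitochondria and oxidise them, together with thioesterases and an uncoupling protein of the same compartment. Earlier results of these data were known when the genes were chosen, so counts of called genes among them are descriptive only. All 32 were among the 24589 genes measured. The cells were wild-type CD8+ T cells, activated with anti-CD3/28 in Click's medium with serum, and then exposed for 24 h either to TVA at 20 µM or to DMSO alone, with 3 libraries in each group. Per the study's methods they were purified with magnetic beads from C57BL/6 mice, using spleen and peripheral lymph nodes. The labels do not say whether the 3 libraries of a group came from separate mice or cultures, so p-values measure only the spread between these libraries.

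Long-chain acyl-CoA cannot cross the inner mitochondrial membrane. CPT1 on the outer membrane moves the acyl group to carnitine, the carrier encoded by Slc25a20 exchanges the acylcarnitine across the inner membrane, and CPT2 rebuilds acyl-CoA in the matrix, with CPT1 held in check by malonyl-CoA. A round of β-oxidation then consists of dehydrogenation, hydration, another dehydrogenation and thiolysis, and the electrons of the acyl-CoA dehydrogenases pass through the electron transfer flavoprotein to ETFDH and on to ubiquinone. In CD8+ T cells the pathway is best known from work on memory cells, and activated cells rely heavily on glucose.

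With TVA, 4 genes rose and were called under each of 14 alternative settings: Cpt1a 3.07-fold, Slc25a20 1.58-fold, Acadvl 1.44-fold and Etfdh 1.41-fold, as ratios of mean TPM (a transcript level corrected for gene length and for the total of the library). They encode the outer-membrane entry enzyme, the inner-membrane acylcarnitine carrier, the dehydrogenase of very long chains, and the enzyme that delivers the electrons to ubiquinone. Most other enzymes of the cycle, among them Cpt2, Acadm, Hadha and Echs1, did not pass the test. Expression was compared with limma on log2(TPM + 1), a scale that understates the change of genes with low TPM, and a gene was called at a Benjamini-Hochberg adjusted p under 0.05 over all 10866 genes that reached 1 TPM in 3 or more of the libraries. Of the 32 genes, 31 were tested and 10 were called, 9 higher and 1 lower, where 8.51% of all genes tested were called (5.28% higher and 3.23% lower). At an unadjusted p under 0.05, 15 of the 31 passed, where 31.8% of all genes did. The log2 change was above 0 for 24 of the 31 and for 61.5% of all genes tested. The median log2 change was 0.07 over the 31 genes and 0.04 over all genes tested.

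**Figure D1:**
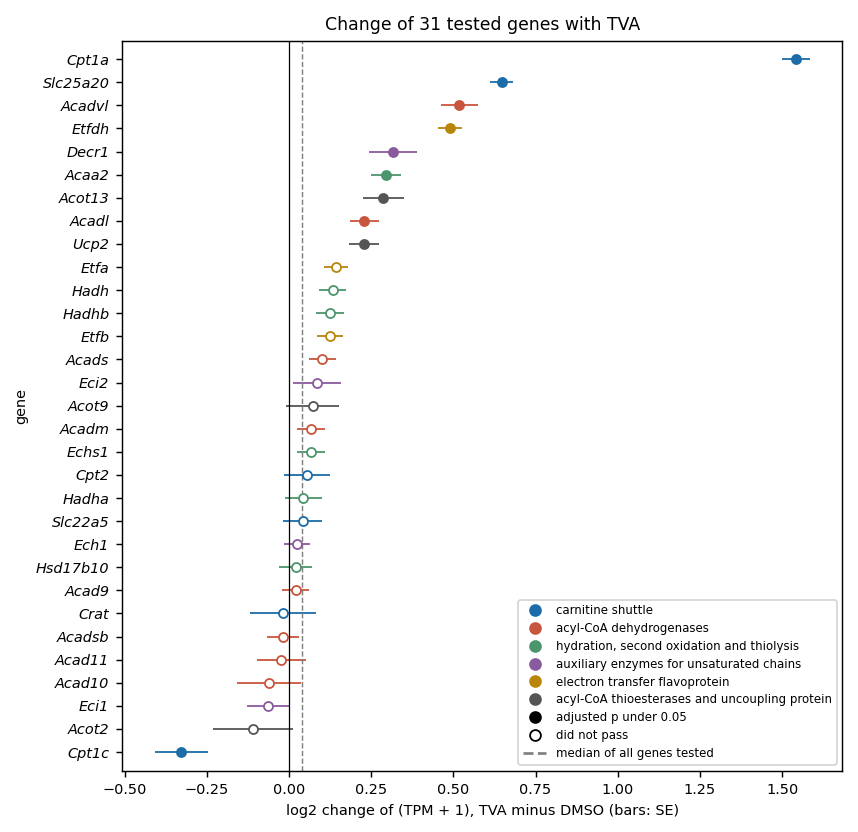
Log2 change of (TPM + 1), TVA minus DMSO, with its SE for each of the 31 genes tested, coloured by step of the pathway. Filled points had a limma adjusted p under 0.05, open points did not pass, and the dashed line is the median of all genes tested (0.04). Cpt1a (1.54) stands apart, followed by Slc25a20 (0.65), Acadvl (0.52) and Etfdh (0.49), and Cpt1c (-0.33) is the only filled point below 0.

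The libraries were similar to each other: between pairs, the Pearson correlation across genes, which are not independent replicates, was 0.989 to 0.999 on the log2(TPM + 1) scale. DMSO replicate 2 correlated at 0.996 with each TVA library and at 0.993 and 0.995 with the other DMSO libraries, so the count of called genes is also given without it. T cell genes were abundant, with the summed TPM of 8 T cell markers from 2172 to 2309 with DMSO and from 2398 to 2423 with TVA. Cd8a, which defines these cells, was between 274 and 300 TPM under DMSO and between 312 and 318 TPM under TVA. Myeloid markers moved with the treatment. Their sum over 8 genes was 52.2 to 53.7 TPM under DMSO and 68.04 to 72.6 TPM under TVA. Of the 7 tested, 3 (Lyz2, S100a9 and Mpo) were called higher, where 5.28% of all genes tested were. The macrophage genes Csf1r (0.64 to 0.82 TPM under DMSO, 1 to 1.28 TPM under TVA) and Adgre1 (0.26 to 0.50 and 0.57 to 0.89 TPM) were low and did not overlap between the groups either. In all, 6 of the 8 myeloid markers did not overlap, each higher with TVA, where 27.3% of all genes tested had such a pattern. Of 5 NK cell markers only Eomes, which CD8+ T cells also express, reached 1 TPM, and it was called higher (21.9 ± 1.52 to 32.5 ± 0.417 TPM, SD, n = 3). Of the T cell markers Cd3g was called, higher, and of the red cell markers Hbb-bt, lower. The groups did not overlap for 4 T cell markers that were higher with TVA (27.3% of all genes tested) and 1, Zap70, that was lower (11.2%). Summed markers of CD4 T cells (9.97 to 11.6 TPM under DMSO, 8.72 to 10.4 TPM under TVA), B cells (11.3 to 14.9 and 10.7 to 11.02 TPM) and red cells (16.2 to 29.4 and 9.47 to 23.4 TPM) were low, though none of the marker genes was at 0 in every library. The part of other cells in the results below was not tested, and in bulk samples fewer cells of a type cannot be told apart from less RNA per cell. Depth cannot be read from TPM.

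The sequences before the start sites of the 3 genes that rose most are shown. The windows come from RefSeq (build GRCm38.p6, the assembly also called mm10), run 5′ to 3′ on the gene's strand, begin 250 bases before the RefSeq start site, and stop where a GENCODE exon begins, which left 234, 202 and 250 bases. That of Cpt1a is chr19:3323051-3323284 on the plus strand, that of Slc25a20 chr9:108661886-108662087 on the plus strand, and that of Acadvl chr11:70015429-70015678 on the minus strand. The RefSeq gene Cpt1a as a whole begins further upstream, at 3322326, so its window, taken before the start site listed for the gene, lies within the gene's outer limits. Capitals mark AGGTCA, the core element bound by nuclear receptors such as PPARs, on either strand (TGACCT is its reverse complement).
Cpt1a: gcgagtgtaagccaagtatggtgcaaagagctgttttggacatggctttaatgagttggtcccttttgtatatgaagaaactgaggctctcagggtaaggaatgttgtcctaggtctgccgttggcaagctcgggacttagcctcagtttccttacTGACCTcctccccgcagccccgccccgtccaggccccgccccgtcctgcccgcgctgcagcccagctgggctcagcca
Slc25a20: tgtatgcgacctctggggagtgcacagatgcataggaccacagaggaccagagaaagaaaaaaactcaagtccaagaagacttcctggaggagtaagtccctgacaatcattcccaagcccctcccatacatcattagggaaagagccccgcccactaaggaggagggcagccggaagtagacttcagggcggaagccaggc
Acadvl: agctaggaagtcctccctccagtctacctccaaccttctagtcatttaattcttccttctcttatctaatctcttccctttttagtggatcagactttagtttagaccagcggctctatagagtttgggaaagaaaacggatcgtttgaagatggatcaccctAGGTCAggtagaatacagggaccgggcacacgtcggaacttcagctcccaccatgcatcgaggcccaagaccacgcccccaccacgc

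Untrimmed windows were found for 26 of the 32 genes; Cpt1b, Crat, Acad9, Acaa2, Decr1 and Acot13 did not match. AGGTCA was present on either strand in 5 of the 26 (Cpt1a, Cpt1c, Acadvl, Acadm and Echs1), and in 14.02% of 32851 windows of the same length from all genes. In Cpt1a it began 94 bases and in Acadvl 87 bases before the start site, and these letters were absent from the Slc25a20 window. A direct repeat of AGGTCA with any 1 base between the copies was in 0 of the 26 windows and in 0.0335% of all windows. The palindrome TGACGTCA, the cAMP response element bound by CREB, was in 0 of the 26 and in 1.55% of all windows. The shorter TGACG, which also lies within the palindrome, was in 9 of the 26 and in 17.8% of all windows, and the called genes with it were Etfdh and Ucp2. Matches of letters are a description of these windows only.

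The carnitine shuttle held the largest changes. Cpt1a, the liver-type CPT1 (chromosome 19, 3322326 to 3385735), had 11.9, 12.5 and 11.8 TPM under DMSO against 36.6, 37.6 and 36.8 TPM under TVA (here and below in the order of replicates 1, 2 and 3). The lowest TVA library was far above the highest DMSO library. The means were 12.1 ± 0.374 and 37.02 ± 0.541 TPM (SD, n = 3 each), with a log2 change of 1.54 ± 0.042 SE (adjusted p 3.9e-06 by limma). Its unadjusted p ranked 1 and its log2 change ranked 4 among the 10866 genes tested.

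The carnitine-acylcarnitine carrier gene Slc25a20 (chromosome 9, 108662136 to 108684642) had 38.2, 39.2 and 38.9 TPM under DMSO against 60.6, 61.9 and 61.3 TPM under TVA. Within each group the libraries differed by little, and the groups lay well apart. The log2 change was 0.65 ± 0.035 SE (adjusted p 4.4e-04 by limma), and its p ranked 3 among all genes tested.

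The genes listed for other steps of the shuttle did not pass the test. Cpt2, the inner-membrane partner of CPT1, had 9.41, 9.22 and 7.87 TPM under DMSO against 8.98, 9.10 and 9.47 TPM under TVA (log2 change 0.05 ± 0.070 SE, adjusted p 0.62 by limma). Slc22a5, which encodes the plasma membrane carnitine importer OCTN2, lay between 8.65 and 9.35 TPM under DMSO and between 8.81 and 9.82 TPM under TVA (adjusted p 0.65 by limma). Crat, the carnitine acetyltransferase of short acyl groups, lay between 1.40 and 1.99 TPM over the 6 libraries (adjusted p 0.91 by limma). For these 3 genes the groups overlapped.

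The other CPT1 genes were low. Cpt1c, the form best known from neurons, had 2.75, 3.07 and 2.54 TPM under DMSO against 2.18, 2.03 and 1.84 TPM under TVA, with groups that did not overlap. It was the single gene called lower (log2 change -0.33 ± 0.081 SE, adjusted p 0.0492 by limma). That call lay at the threshold and was lost when any library was left out (0.063 to 0.17). Cpt1c overlaps an antisense gene, 6530437J22Rik, so its values are uncertain. Cpt1b, the muscle form, missed the filter on low values and was not tested, at 0.59, 0.18 and 0.47 TPM under DMSO against 0.71, 0.78 and 0.43 TPM under TVA. It overlaps Gm44502 on the same strand by 9459 bases, and reads may be split between them. The order of the 3 CPT1 genes, Cpt1a above Cpt1c above Cpt1b, was the same in all 6 libraries, with no overlap between neighbours.

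**Figure D2:**
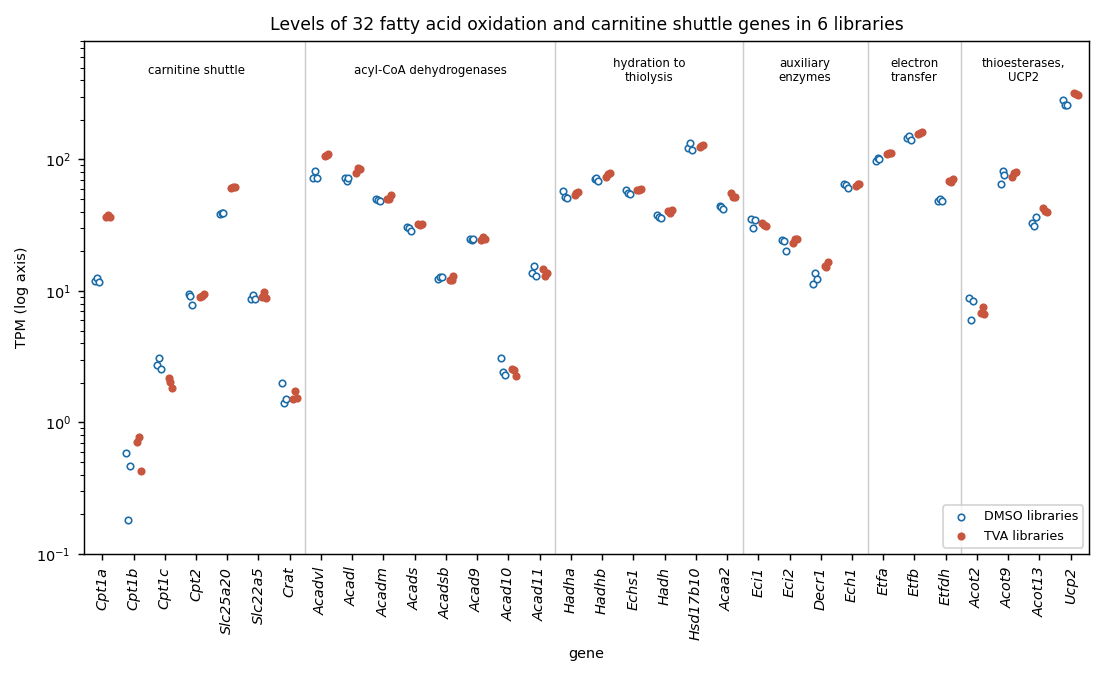
TPM of the 32 genes (log axis) in each library, grouped by step of the pathway, with DMSO libraries as open blue points and TVA libraries as filled red points. Levels run from 0.18 TPM (Cpt1b) to 321 TPM (Ucp2), and the red points of Cpt1a, Slc25a20, Acadvl and Etfdh sit visibly above the blue ones.

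The acyl-CoA dehydrogenases open each round of β-oxidation and differ in the chain length they prefer. Acadvl, which takes very long and long chains at the inner membrane (chromosome 11, 70010183 to 70015428), had 71.96, 82.01 and 71.7 TPM under DMSO against 105.6, 109 and 109.4 TPM under TVA. DMSO replicate 2 was the highest of its group, and still below every TVA library. The log2 change was 0.52 ± 0.057 SE (adjusted p 0.0046 by limma). Acadvl overlaps Dvl2 on the other strand by 2119 bases, and the use of strand is not stated. Dvl2 had mean TPM of 21.3 with DMSO and 22.05 with TVA (adjusted p 0.61 by limma).

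Acadl, the long-chain dehydrogenase, had 72.3, 68.4 and 72.1 TPM under DMSO against 79.5, 85.5 and 85 TPM under TVA, and its groups did not overlap. Its log2 change was 0.23 ± 0.044 SE (adjusted p 0.026 by limma). Acadl no longer passed on omission of DMSO replicate 3 or of a TVA library (0.060 to 0.14), nor under the replicate block (0.065). Acadm, the medium-chain dehydrogenase, had 48.9 ± 0.942 and 51.3 ± 2.13 TPM under DMSO and TVA (SD, n = 3, log2 change 0.07, adjusted p 0.31 by limma), with overlapping groups. Acads, for short chains, had 30.9, 30 and 28.8 TPM under DMSO against 32.3, 31.9 and 32.1 TPM under TVA, which did not overlap but did not pass (log2 change 0.10, adjusted p 0.14 by limma). The log2 changes of these 4 genes ran 0.52, 0.23, 0.07 and 0.10 from the longest to the shortest chains, and the differences between them were not tested. After the correction for GC content they were 0.54, 0.16, 0.04 and 0.22, with Acads then above Acadl. The remaining dehydrogenases of the family, Acadsb (branched short chains), Acad9 (also a complex I assembly factor), Acad10 and Acad11, had log2 changes from -0.06 to 0.02 and overlapping groups.

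Of the 6 genes tested for the later steps, 1 was called, higher with TVA, where 5.28% of all genes tested were called higher. In 3 of the 6 every TVA library was above every DMSO library, as in 27.3% of all genes tested. Acaa2, a mitochondrial thiolase that releases acetyl-CoA, had 44.3, 43.6 and 41.7 TPM under DMSO against 55.9, 52 and 52 TPM under TVA. It was the gene called (log2 change 0.30 ± 0.046 SE, adjusted p 0.016 by limma), and its adjusted p was 0.065 to 0.072 on omission of a TVA library. Hadha and Hadhb encode the α and β subunits of the trifunctional protein, which carries out the later reactions on long chains. Their RefSeq start sites lie head to head, 273 bases apart on chromosome 5 (30154980 for Hadha on the minus strand, 30155253 for Hadhb on the plus strand). Hadha had 58.1, 51.6 and 51.3 TPM under DMSO against 53.5, 55.6 and 56.8 TPM under TVA, which overlapped (adjusted p 0.61 by limma). Hadhb had 71.3, 72.1 and 68.03 TPM under DMSO against 74.02, 77.9 and 79.04 TPM under TVA, which did not overlap and did not pass (log2 change 0.13, adjusted p 0.097 by limma). Hadh, the hydroxyacyl-CoA dehydrogenase of shorter chains, was similar, at 38.05, 36.3 and 35.7 TPM under DMSO against 40.5, 39.5 and 40.95 TPM under TVA (log2 change 0.13, adjusted p 0.080 by limma). Without DMSO replicate 1 Hadh was called (log2 change 0.16, adjusted p 0.043 by limma), in a setting in which 8.70% of all genes were. The hydratase gene Echs1 (54.6 to 60.07 TPM) and Hsd17b10 (117.9 to 133.3 TPM), a dehydrogenase of short and branched acyl-CoA, had overlapping groups over the 6 libraries.

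Double bonds in a chain need auxiliary enzymes before β-oxidation can go on. Decr1, the dienoyl-CoA reductase, had 11.3, 13.8 and 12.3 TPM under DMSO against 15.5, 15.3 and 16.5 TPM under TVA, with no overlap (log2 change 0.32 ± 0.073 SE, adjusted p 0.042 by limma). It no longer passed on omission of DMSO replicate 3 or of a TVA library (0.10 to 0.16), nor under median-of-ratios scaling, quantile normalization, the GC correction, the replicate block or with all genes above 0 TPM tested (0.053 to 0.081). The enoyl-CoA isomerase genes Eci1 and Eci2 and the dienoyl-CoA isomerase gene Ech1 had log2 changes of -0.06, 0.08 and 0.02, with overlapping groups and limma adjusted p-values from 0.45 to 0.71. Eci1 and Ech1, at 31.9 ± 1.005 and 64.3 ± 1.25 TPM under TVA (SD, n = 3), were expressed above Decr1 in every library.

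All 3 genes of the electron transfer branch were higher in each TVA library than in any DMSO library, where 27.3% of all genes tested had such a pattern. Etfdh, the ubiquinone oxidoreductase (chromosome 3, 79603788 to 79628767), had 47.99, 49.97 and 48.4 TPM under DMSO against 68.5, 67.9 and 70.4 TPM under TVA. Its log2 change was 0.49 ± 0.037 SE (adjusted p 0.0010 by limma). It overlaps 4930579G24Rik on the other strand by 422 bases, a gene with mean TPM of 16.1 with DMSO and 18.9 with TVA (adjusted p 0.10 by limma). Etfdh also overlaps Gm37973, which has no value in these data, on the same strand by 1289 bases, and reads may be split between them. Etfa, a subunit gene of the flavoprotein itself, had 97.98, 102.85 and 100.7 TPM under DMSO against 109.3, 111.6 and 112.5 TPM under TVA, just outside the threshold (log2 change 0.14 ± 0.036 SE, adjusted p 0.0509 by limma). Etfb, the other subunit gene, had 145.3, 151.85 and 141.1 TPM under DMSO against 157.4, 158.5 and 162.2 TPM under TVA (log2 change 0.13 ± 0.040 SE, adjusted p 0.083 by limma). Etfb overlaps Gm45233 on the same strand by 13673 bases, and reads may be split between them. Without DMSO replicate 2 both subunit genes were called (0.028 and 0.030), in a setting in which 20.6% of all genes were.

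Because levels in TPM are scaled to gene length, levels of different genes of the pathway can be compared within a library. The ratio of Cpt1a to Cpt2 was 1.27, 1.35 and 1.498 in the DMSO libraries and 4.08, 4.14 and 3.88 in the TVA libraries. The ratio of Slc25a20 to Slc22a5 was 4.36 ± 0.149 with DMSO and 6.67 ± 0.337 with TVA (SD, n = 3), that of Acadvl to Acadm 1.54 ± 0.125 and 2.11 ± 0.066, and that of Etfdh to Etfa 0.486 ± 0.0044 and 0.620 ± 0.0103. The ratios of Cpt1a to Cpt1c and of Acaa2 to Hadhb, which were also computed, went from 4.35 ± 0.287 to 18.4 ± 1.59 and from 0.613 ± 0.0088 to 0.693 ± 0.054. For none of these 6 ratios, which were chosen after the values were seen, did the groups overlap, and each had a two-sided exact permutation p of 0.1, the smallest that 3 libraries against 3 allow.

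**Figure D3:**
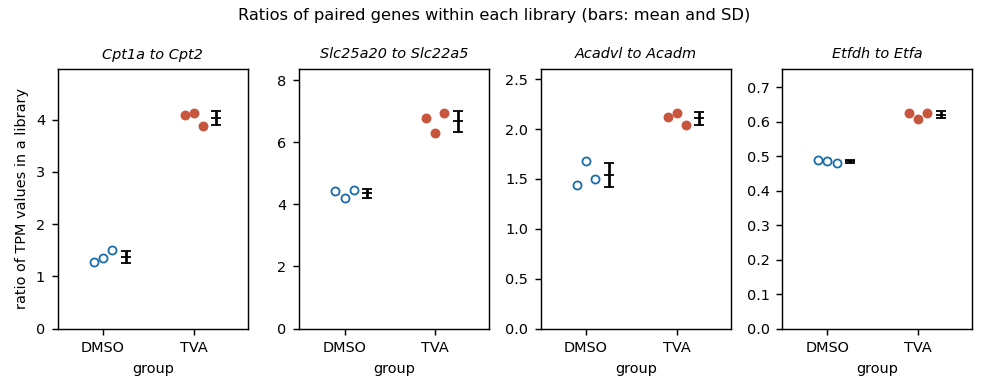
Ratios of TPM values of paired genes within each library, with DMSO libraries as open points, TVA libraries as filled points and bars for the mean and SD (n = 3); each axis starts at 0. The TVA libraries lie above the DMSO libraries in all 4 panels, from 3.88 to 4.14 against 1.27 to 1.498 for Cpt1a to Cpt2.

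Thioesterases split acyl-CoA back to free fatty acid, and UCP2 is a carrier of the inner membrane. Acot13 had 32.9, 31.3 and 36.6 TPM under DMSO against 42.8, 40.8 and 39.7 TPM under TVA, without overlap (log2 change 0.29 ± 0.063 SE, adjusted p 0.037 by limma). It no longer passed on omission of DMSO replicate 1 (0.053) or of a TVA library (0.12 to 0.15), nor under median-of-ratios scaling, quantile normalization, the replicate block or with all genes above 0 TPM tested (0.055 to 0.071). Ucp2 was the most abundant of the 32 genes, at 284.8, 261 and 260.5 TPM under DMSO against 320.6, 314.4 and 308.6 TPM under TVA (log2 change 0.23 ± 0.045 SE, adjusted p 0.028 by limma). On omission of DMSO replicate 3 (0.074) or of a TVA library (0.11 to 0.14) it no longer passed. Nor did it pass with all genes above 0 TPM tested (0.051) or under the replicate block (0.053). Ucp2 also overlaps Dnajb13 on the other strand by 305 bases. Acot9 spread widely in the DMSO group (64.5, 81.1 and 76.6 TPM) and overlapped with TVA (73.7 to 79.99 TPM). Acot2 overlapped too, at 7.74 ± 1.49 and 7.03 ± 0.450 TPM (SD, n = 3), and its values are uncertain because it has a near-identical neighbour, Acot1, with which reads can be exchanged.

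Over the 32 genes together, TPM summed to between 1515 and 1567 in the DMSO libraries and to between 1760 and 1789 in the TVA libraries. Of the 31 tested, 14 were higher in every TVA library than in any DMSO library and 1 was lower, where 27.3% and 11.2% of all genes tested were (38.6% in either direction). The number called was 12 without DMSO replicate 2 (11 higher and 1 lower, the latter then Acot2 in place of Cpt1c), where 20.6% of all genes were called, and 4 without any 1 of the TVA libraries (Cpt1a, Slc25a20, Acadvl and Etfdh each time), where 0.94% to 1.15% of all genes were. It was 6 without DMSO replicate 3, where 2.71% of all genes were called. The GC content of the transcripts of the 10 called genes ran from 45.3% to 56.8%, and after a correction for GC content 9 genes were called, all higher, with Acads added and Decr1 and Cpt1c lost, where 10.3% of all genes were called.

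**Figure D4:**
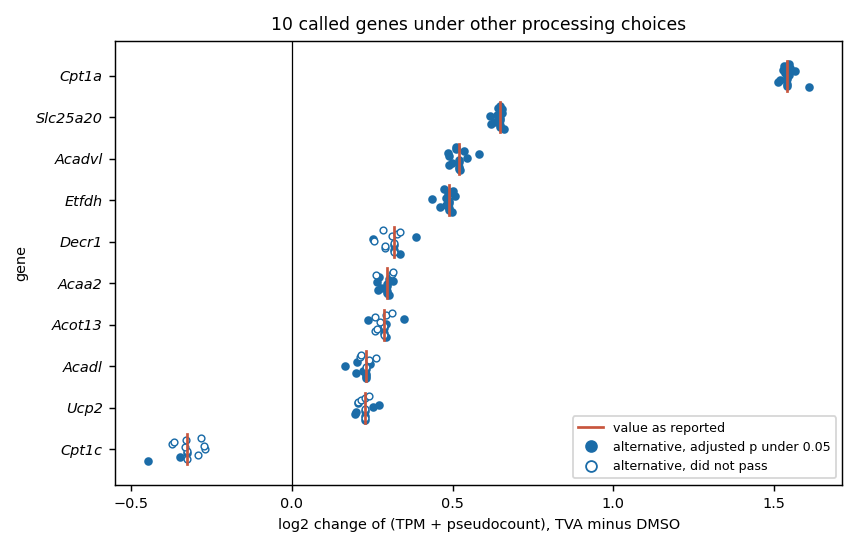
Log2 change, TVA minus DMSO, of the 10 called genes as reported (red line) and under the other processing choices (points, filled where the limma adjusted p was under 0.05). The points of Cpt1a, Slc25a20, Acadvl and Etfdh are all filled, and those of Cpt1c are mostly open.

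Other genes of the pathway were read from lists of related genes. Of genes that control fatty acid oxidation, 17 of 22 were tested, 3 were called higher and 1 lower, where 5.28% and 3.23% of all genes tested were. Acaca, which makes malonyl-CoA, the inhibitor of CPT1, had 29.6 ± 1.25 and 37.1 ± 1.35 TPM under DMSO and TVA (SD, n = 3, log2 change 0.32, adjusted p 0.014 by limma), and its adjusted p was 0.051 to 0.085 on omission of a TVA library. Acacb, the mitochondrial malonyl-CoA producer, lay at 0.07 to 0.14 TPM and was not tested, and Mlycd, which degrades malonyl-CoA, had 9.85 ± 1.17 and 11.1 ± 0.422 TPM (log2 change 0.16, adjusted p 0.20 by limma). Mlycd was called higher after the GC correction (log2 change 0.31, adjusted p 0.0074) and without DMSO replicate 1 (0.25, adjusted p 0.035). Nrip1, a nuclear receptor corepressor, had 12.9 ± 1.23 and 16.9 ± 0.771 TPM (log2 change 0.37, adjusted p 0.024 by limma) and was called in 8 of 14 alternatives. Prkag1, a subunit gene of AMP-activated protein kinase, had 97.8 ± 4.83 and 111.6 ± 2.48 TPM (log2 change 0.19, adjusted p 0.046 by limma) and was called in 4 of 14.

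Among the receptors, Ppard was the only PPAR gene above 1 TPM. It had 13.5, 11.4 and 11.2 TPM under DMSO against 11.2, 11.3 and 11.2 TPM under TVA (log2 change -0.09, adjusted p 0.42 by limma). Ppara and Pparg lay between 0.01 and 0.19 TPM, and the coactivator gene Ppargc1a at 0 to 0.02 TPM. Ppargc1b had 2.86 ± 0.352 and 2.99 ± 0.070 TPM (adjusted p 0.69 by limma). Rxra, the gene of a dimer partner of PPARs, was called lower, from 6.73 ± 0.244 to 4.79 ± 0.225 TPM (log2 change -0.42 ± 0.058 SE, adjusted p 0.011 by limma), and was not called without TVA replicate 2 or 3 (0.065 and 0.061).

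PPAR target genes outside mitochondrial oxidation were listed as well, and 5 of the 12 tested of 23 were called, all higher, where 5.28% of all genes tested were called higher. Plin2, a lipid droplet coat gene, had 16.1 ± 1.03 TPM under DMSO and 61.6 ± 1.08 TPM under TVA (SD, n = 3, log2 change 1.87), and Acsl3, which activates fatty acids, had 4.50 ± 0.446 and 7.44 ± 0.226 TPM (0.62). Both were called in every alternative in which they were tested. Cd36, a fatty acid uptake gene, had 1.29 ± 0.396 and 2.89 ± 0.090 TPM (0.78), and no longer passed on omission of a TVA library (0.077 to 0.089). Acsl1, another activating enzyme, had 6.34 ± 0.430 and 8.12 ± 0.108 TPM (0.31) and was called in 7 of 13 alternatives. Tmem135 had 14.05 ± 0.530 and 16.1 ± 0.145 TPM (0.19) and was called in 4 of 14 alternatives. Other known targets did not pass, among them Angptl4 (10.03 to 11.2 TPM under DMSO, 10.9 to 11.5 TPM under TVA, adjusted p 0.41 by limma). Pdk4, chosen for mention after its values were seen, was too low to be tested, at 0, 0.03 and 0.02 TPM under DMSO against 0.68, 0.68 and 0.62 TPM under TVA.

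In the remaining lists, calls are again to be read beside the 8.51% of all genes tested that were called. Of 25 tested genes of other mitochondrial acyl-CoA and ketone body enzymes (29 listed), 3 were called higher: Hsdl2 (log2 change 0.37 ± 0.036 SE, adjusted p 0.0030 by limma), Gcdh, a glutaryl-CoA dehydrogenase that also feeds the electron transfer flavoprotein (0.21), and Mmaa, a gene of cobalamin handling (0.29). Hsdl2 was called in all 14 alternatives, Gcdh in 5 of 14 and Mmaa in 6 of 13. Of 7 tested genes of other thioesterases and uncoupling proteins (13 listed), the mitochondrial carrier gene Slc25a30 was called higher (log2 change 0.20), and in 6 of 14 alternatives. None of the 4 tested genes of carnitine synthesis and peroxisomal carnitine transfer (8 listed) was called by limma, and 3 had an unadjusted p under 0.05 (Aldh9a1 and Crot higher, Slc25a29 lower), as did 31.8% of all genes tested. The peroxisomal carnitine octanoyltransferase gene Crot had 16.2 to 17.7 TPM under DMSO and 18.9 to 20.3 TPM under TVA (log2 change 0.18, adjusted p 0.065 by limma).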

How the data were processed

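Bulk RNA-seq of 6 libraries was used, 3 with TVA and 3 with DMSO, grouped by their titles. Per the labels, RNA was made into libraries with a SMARTER mRNA-Seq kit. The authors deposited 1 table of TPM per gene symbol, with 2 decimals; the submitters' processing notes name STAR, RSEM and mm10, while versions and annotation are not given in the sources used here. TPM values keep no depth, so no counting interval is given.

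Values were used as deposited. The comparison used limma 3.58.1 in R 4.3.3 with a variance trend on log2(TPM + 1), two-sided, with Benjamini-Hochberg adjustment over the 10866 genes reaching 1 TPM in 3 or more libraries. The fit was also run on simulated data. The simulated noise was independent between genes, so that run does not cover differences shared by many genes of a library. The genes and lists were chosen with earlier results of these data known. By rule, called genes of the pathway are given in every library with their test. Those with an unadjusted p under 0.05 or without overlap are given by their values, as is the untested Cpt1b, and the others by level. Acadsb, Acad9, Acad10, Acad11 and Eci2 are given only by log2 change or its range. For Cpt2, Hadha and Ppard all values are also printed. Of the related lists, called genes are named, with Ppara, Ppard, Pparg, Ppargc1a, Ppargc1b, Acaca, Acacb and Mlycd. Aldh9a1, Crot, Slc25a29, Angptl4 and Pdk4 were chosen after their values were seen. GC content was the median over GENCODE vM21 transcripts (99.4% of genes tested had a value). Symbols (99.2%) and promoter windows were matched to RefSeq. Figures were drawn with matplotlib 3.10.9. Alternatives were another pseudocount, other filters and scalings, no trend, a replicate block, a GC correction (loess, span 0.5) and the omission of each library.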

Additional observations from a re-analysis of the deposited data

How the results depend on the processing

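Cpt1a, Slc25a20, Acadvl and Etfdh were called under each of the 14 alternatives, with log2 changes of 1.51 to 1.61, 0.62 to 0.66, 0.49 to 0.58 and 0.44 to 0.51. Of the genes tested, 925 were called as reported, 494 with all genes above 0 TPM, 608 at a mean of at least 10 TPM, and 102 to 2242 with a library left out. The 10 called genes of the pathway (9 higher, 1 lower) became 6 with all genes above 0 TPM and 4 to 12 with a library left out (4 to 11 higher). The number lower was 0 with all genes above 0 TPM, at a mean of at least 10 TPM, and under quantile normalization or the GC correction, and 0 to 1 with a library left out. The 13 called genes of the related lists became 8 with all genes above 0 TPM or at a mean of at least 10 TPM, and 3 to 17 with a library left out. The called genes Cpt1c, Rxra, Mmaa, Cd36, Acsl1 and Acsl3 lay below a mean of 10 TPM, so under that filter they were not tested. The share of calls that were higher was 62.1% as reported, 38.7% under median-of-ratios scaling, 46.1% under quantile normalization, 51.8% under the GC correction and 36.3% to 66.1% with a library left out. Apart from genes that a filter left out, the causes of these differences were not tested.

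The labels do not say whether replicate numbers pair the samples, and the libraries were treated as unpaired. The deviations of same-numbered libraries from their group means correlated at 0.16, 0.03 and -0.08, which cannot settle whether they were paired. With the replicate number as a block, 218 genes were called, of which 42.7% were higher, with 5 of the fatty acid oxidation genes (5 higher, 0 lower) and 6 of the related lists.

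Some log2 changes near 0 turned in sign. Crat was 0.011 under quantile normalization and 0.031 under the GC correction. Acad9 was -0.0086, -0.00096 and -0.017 under median-of-ratios scaling, quantile normalization and the GC correction. Hsd17b10 was -0.0091 and -0.00012 under median-of-ratios scaling and the GC correction, Ech1 was -0.0060 under median-of-ratios scaling, and Ppard was 0.047 under the GC correction. With a library left out, Cpt2 ran from -0.019 to 0.097, Slc22a5 from -0.0020 to 0.074, Crat from -0.083 to 0.076, Acad10 from -0.12 to 0.036, Acad11 from -0.076 to 0.047, Hsd17b10 from -0.017 to 0.071, Ech1 from -0.0037 to 0.044, Acot9 from -0.023 to 0.14 and Ppargc1b from -0.0067 to 0.12. TPM holds no depth, so what depth limits cannot be stated.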
